A study of Mus musculus with 8 samples.

Results

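Titin, encoded by Ttn, and 7 other genes for scaffold proteins of the sarcomere were examined in RNA-seq of mouse embryonic stem cells (mESCs). The members were the rows of the deposited table named Ttn, Neb, Nebl, Obsl1, Myom1, Myom2, Des and Ldb3, and all 8 were found among its 19429 genes. They were chosen on earlier results of the same data, because Ttn drew attention in the authors' comparison of the genotypes and the other 7 build the same structure. The authors' fold changes and p-values, which made that choice, are not given here. The series holds 8 libraries of the mESC line LF2. WT libraries came from lines 2 and 5, and D2018A libraries from lines 7 and 8, in which both copies of Tet1 encode alanine in place of the aspartate that supports binding of TET1 to the O-GlcNAc transferase OGT. Each line was sequenced as 2 technical replicates. Every line is a single clone made by Cas9 editing, carries a FLAG tag at the C-terminus of TET1 and was grown with LIF and serum. The study's text also describes a deletion in the WT cells that lies away from the edited site and is absent from D2018A cells.

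The sarcomere is the contractile unit of striated muscle. Titin spans from the Z-disc, where thin filaments are anchored, to the M-band at the centre of the thick filaments, and acts as a molecular spring and template. Nebulin runs along the thin filament, myomesins link titin and myosin at the M-band, and desmin filaments tie neighbouring Z-discs together. Pluripotent cells do not build sarcomeres, but several of these genes also have roles outside muscle.

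The table holds a single value of expression for each gene, the authors' mean of normalised counts, in which each library's count is divided by a size factor. Its lowest values fell on 12 steps, each the mean that 1 read in 1 library produces and each shared by between 38 and 123 genes. Read as 1 library each, these steps give 12 libraries, 4 more than the labels describe, with size factors between 0.726 and 1.47. This number was inferred with at least 30 genes required for a step, and it is used below. Requiring 20 genes gave 13 and requiring 50 gave 5. No value of a single library or genotype was used here, so no spread between lines and no WT against D2018A comparison accompanies any level below. Intervals are exact Poisson intervals of 95% for the fewest reads that the mean allows, and they cover counting error only. In bulk RNA, fewer expressing cells and less RNA per cell cannot be told apart.

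Among the members, Ttn had the most reads. Its mean was 902 normalised counts (interval 882 to 922), the authors' mean over the 12 libraries, and 2683 of all genes had a higher one. Obsl1, which encodes the cytoskeletal adaptor obscurin-like 1, followed with a mean of 666 (649 to 684), and Des, which encodes the intermediate filament protein desmin, with 218 (208 to 228). Ttn alone accounted for 47.6% of the summed mean of the members, 1894 normalised counts. The remaining members had far fewer reads. The mean was 52.1 (47.4 to 57.1) for Neb, the nebulin gene, and 36.3 (32.4 to 40.6) for Ldb3, whose protein binds alpha-actinin at the Z-disc. Nebl, which encodes the nebulin relative nebulette, had a mean of 9.53 (7.59 to 11.8). The myomesin genes were lowest, at 5.01 (3.63 to 6.73) for Myom1 and 4.64 (3.32 to 6.31) for Myom2.

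Long transcripts collect more reads at the same number of molecules, and titin is the largest known protein, so levels were next compared per kb of exon. The exons of Ttn joined to 116.825 kb, the second longest exon length in the table, against a median gene of 3.68 kb. They form 345 separate blocks in a locus of 279 kb, and the longest coding sequence holds 35213 codons with the stop. Neb exons covered 26.6 kb and ranked at 31 of all genes by length. The other members lay between 3.75 kb for Des and 15.2 kb for Nebl, each longer than the median gene.

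**Figure D1:**
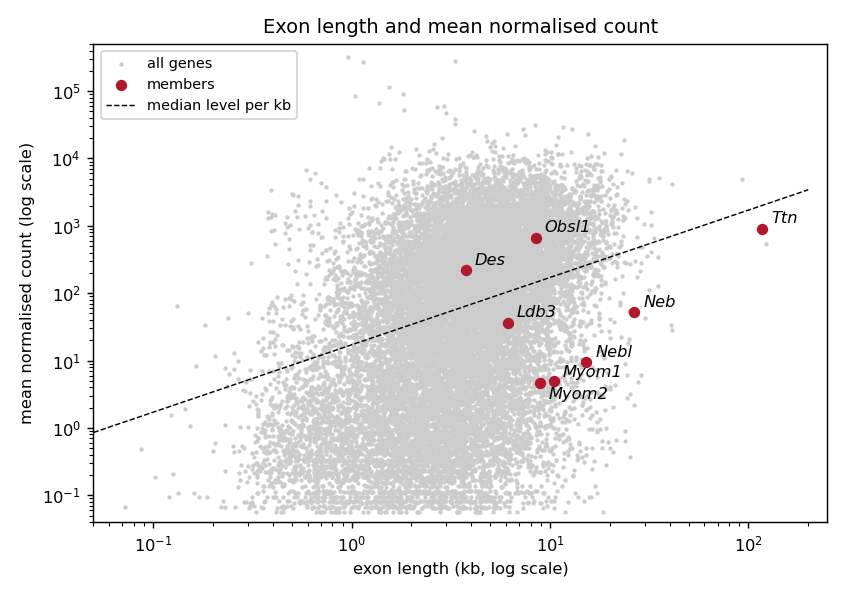
Mean normalised count of each gene against its exon length in kb, both on log scales. Grey points are all genes, red points are the 8 members, and the dashed line marks the median level of 17.1 normalised counts per kb. Ttn lies far to the right and below the line, while Obsl1 and Des lie above it.

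Per kb of exon, Ttn was no longer the highest member. This measure divides all reads of a gene by its joined exon length. Which of the 25 annotated transcripts of Ttn were made was not analysed here, and shorter transcripts would mean a higher level per kb. Its level was 7.72 normalised counts per kb (7.55 to 7.89), below the median of 17.1 over the 19342 genes with a length and at percentile 40.8. By the mean per gene, Ttn stood at percentile 86.2. Obsl1 was highest with 78.7 per kb (76.7 to 80.7), at percentile 73.0, and Des second with 58.1 (55.5 to 60.8), at percentile 68.1. Ttn thus had 4.13 times the mean of Des per gene and 0.133 times its level per kb, and its exon length was 31.1 times that of Des. Set against Obsl1, it had 1.35 times the mean and 0.0981 times the level per kb.

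Below Ttn came Ldb3 with 5.95 per kb (5.32 to 6.65), Neb with 1.96 (1.78 to 2.15) and Nebl with 0.625 (0.498 to 0.775). Myom2 had 0.524 per kb (0.375 to 0.712) and Myom1 0.479 (0.347 to 0.644). In this order, each of the 5 highest members was separated from the next by more than its counting interval. The intervals of Nebl, Myom2 and Myom1 overlapped, so their order is not resolved at this depth. Only 2 members, Obsl1 and Des, lay above the median gene per kb, and 6 lay below it. Highest and lowest differed 164-fold per kb. When coding length replaced exon length, Des (155 per kb) passed Obsl1 (115), Ldb3 (14.5) passed Ttn (8.05) and Nebl (2.78) passed Neb (2.32), so the order within these pairs depends on the length used.

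**Figure D2:**
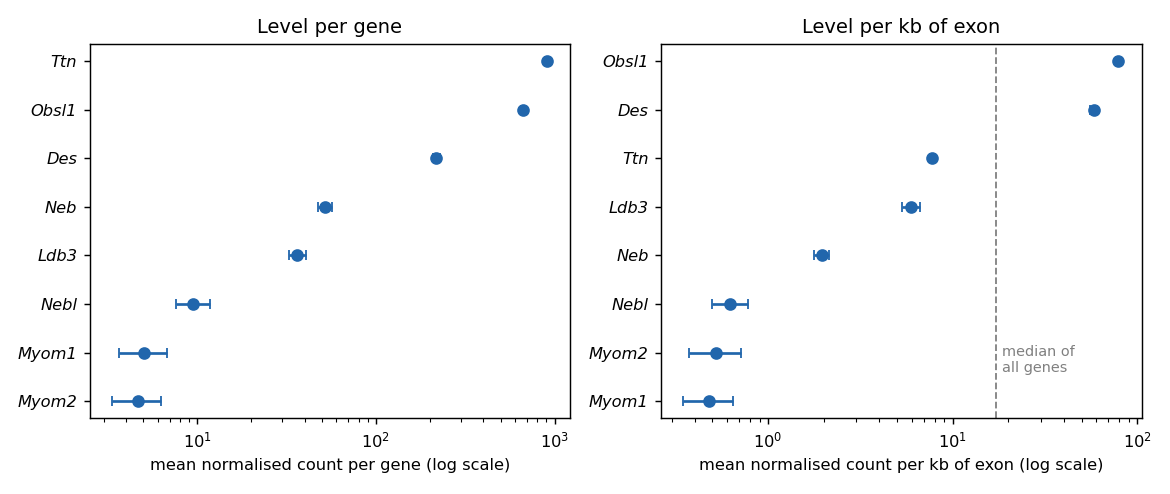
Mean normalised count of the 8 members per gene (left) and per kb of exon (right), on log scales. Points are the authors' mean, taken to cover 12 libraries. Bars are 95% Poisson intervals of counting error, and the dashed line on the right is the median of all genes at 17.1. Ttn is the top member on the left and stands below Obsl1 and Des on the right.

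The lowest members were still measured by more than 1 read per library on average. Given the range of size factors, the mean of Myom2 stands for between 40.4 and 82.0 reads over all 12 libraries, that of Myom1 for between 43.6 and 88.6 and that of Nebl for between 83.0 and 169. For Ttn the same calculation gives between 7854 and 15949 reads. If the 8 described libraries are among the 12, a genotype with 4 of them can have a mean of at most 13.9 normalised counts for Myom2, 15.0 for Myom1 and 28.6 for Nebl. All 8 members had a mean of at least 1, and 5 had at least 10, beside 66.3% of all genes in the table at 10 or above.

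Titin and nebulin are built from repeated modules, and reads were 50 bases long, so stretches of that length that occur more than once could lose reads in the counting. Each 50-base stretch of the longest transcript of each member was therefore searched in that transcript and in the transcripts of all other genes, on both strands. For Ttn and Neb, the only members with a repeat inside the transcript, the first stretch that reaches the highest copy number is shown. In Ttn no stretch had more than 2 copies, so all its repeated stretches tie. Both are read on the minus strand of GRCm38, and the sequences come from the GENCODE transcripts.
Ttn: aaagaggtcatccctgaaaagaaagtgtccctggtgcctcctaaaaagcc
Neb: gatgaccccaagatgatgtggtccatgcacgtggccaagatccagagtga
The Ttn stretch lies at chr2:76833050-76833099 in exon 165 and again at chr2:76829267-76829316 in exon 182, of the 347 exons of that transcript. The Neb stretch occurs 4 times, first at chr2:52258792-52258841 in exon 57 and last at chr2:52232166-52232215 in exon 77, of 157.

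Such stretches were a small part of either gene. In Ttn 758 of 106775 starting positions (0.710%) belonged to a stretch repeated within the transcript, and in Neb 979 of 22440 (4.36%). Starting positions that were unique among all transcripts made up 99.1% of Ttn, 95.6% of Neb, 94.2% of Des, 98.7% of Obsl1 and 99.8% of Nebl, and every position of Myom1, Myom2 and Ldb3. Counted per unique starting position of the longest transcript, Ttn had 8.52 normalised counts per kb. Copies in introns or between genes were not analysed here.

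Overlapping genes touched some members. Exons of Des share 220 bases with the antisense gene Gm15179, and those of Ttn share 453 with the antisense gene Gm13938. Myom1 shares 207 exonic bases with Myl12a on the opposite strand, a non-muscle myosin light chain gene whose mean was 1276 normalised counts, 380 per kb. Whether strand was used in the counting is not given in the sources used here. Reads from such bases cannot be assigned with certainty, and a mean as low as that of Myom1 could be altered by few of them. Neb shares 45 bases with the antisense gene Gm13522, which had a mean of 4.64.

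To set the members beside the rest of the contractile apparatus, lists of muscle genes were described by the same measure. The table lacks 4 of 19 listed thick filament and M-band genes, 2 of 19 thin filament genes and 5 of 25 Z-disc and chaperone genes. The absent genes enter neither the counts nor the medians. Of 15 thick filament and M-band genes in the table, 6 had a mean of at least 10, beside 66.3% of all genes. The median level of the list was 1.50 per kb. Mylpf, a light chain of fast skeletal myosin, was highest at 170 per kb, followed by the atrial light chain genes Myl7 (97.4) and Myl4 (46.4). Of 17 thin filament genes 7 reached a mean of 10, with a median of 2.36 per kb. The highest, Tpm3 (546), Tpm4 (105) and Tpm1 (72.4), encode tropomyosins that many non-muscle cells also use. Among 20 Z-disc and chaperone genes 13 reached that mean, close to the share of all genes, and the median was 6.30 per kb. Highest were Bag3 (202), a co-chaperone, Fhl1 (92.4) and Pdlim5 (73.7). The members' own median of 3.96 per kb lay between these medians, and all 4 lay below the median gene.

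Titin's direct partners were read next, chosen after their values had been seen. At the Z-disc end, titin is capped by the protein of Tcap and binds a muscle alpha-actinin, the product of Actn2. Tcap had a mean of 0.203 normalised counts, which is a few reads over all libraries, and Actn2 had 13.7, or 3.61 per kb. Other genes of the Z-disc list were higher. Actn3, the other muscle alpha-actinin gene, had a mean of 188, or 64.9 per kb. Mypn had 247, or 42.4 per kb, and Myot 38.1, or 17.2 per kb. The non-muscle alpha-actinin gene Actn4 had 1416 per kb. At the M-band end, Myom3 (4.80 per kb) exceeded Myom1 and Myom2 beyond the counting intervals. Desmin's relative vimentin, the usual intermediate filament protein of non-muscle cells, was encoded at 2021 per kb (Vim), against 58.1 for Des.

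**Figure D3:**
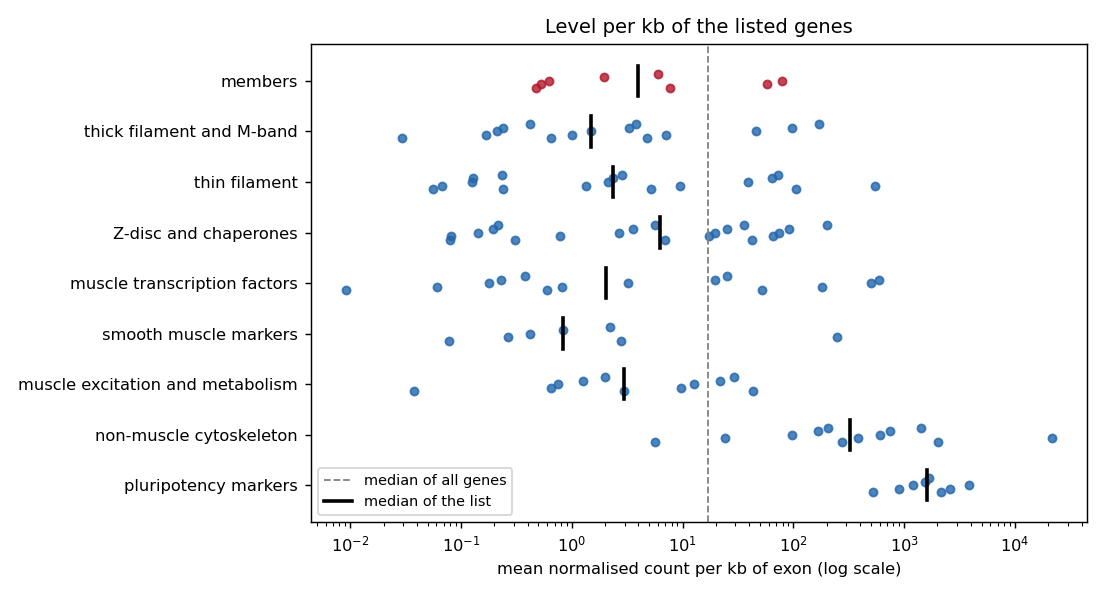
Mean normalised count per kb of exon, on a log scale, for the members (red) and the genes of 8 other lists (blue). Each point is a gene, black bars are list medians, and the dashed line is the median of all genes at 17.1. Pluripotency and non-muscle cytoskeleton genes lie mostly to the right, and the muscle lists spread to both sides of the line.

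Regulators of muscle were uneven in the same way. Of 18 listed muscle transcription factor genes, 14 were in the table and 6 had a mean of at least 10. The median of the 14 was 2.03 per kb, and 66.3% of all genes had a mean of at least 10. Srf (592 per kb), Mef2d (505) and Six4 (183) were highest, and Srf and Mef2d act in many tissues. Myod1, which directs the skeletal muscle fate, had a mean of 0.332 normalised counts, and Nkx2-5, a regulator of the early heart, 5.59, while the heart and endoderm factor gene Gata4 had 76.8. Of 13 listed genes for muscle excitation and metabolism, 11 were in the table and 5 reached 10. The median of the 11 was 2.97 per kb, and Pygm (43.2), Eno3 (28.9) and Casq1 (21.7) were highest. Of 7 smooth muscle genes, all in the table, 2 reached 10, namely Smtn (247 per kb) and Lmod1 (2.78). The median of the 7 was 0.830 per kb, and Cnn1 had 2.22.

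The labelled cell type was checked against its defining markers. All 8 pluripotency markers had means between 977 and 23079 normalised counts, with Esrrb (3817 per kb), Nanog (2572) and Klf4 (2146) the highest per kb. Of the skeletal muscle markers 4 of 6 were in the table and 1, Mylpf, reached a mean of 10, beside 66.3% of all genes. Of 6 cardiac markers 2 did, Tnni3 (81.2) and Tnnt2 (10.4), and of the 4 smooth muscle markers Acta2, Myh11, Cnn1 and Tagln none did, the highest being Cnn1 at 6.07. The cardiac markers were Nkx2-5, Myh6, Myh7, Tnnt2, Tnni3 and Actc1. Summed over each list, the means were 191 for skeletal, 102 for cardiac and 8.90 for smooth muscle markers, against 54018 for pluripotency markers. These counts and sums depend on which genes serve as markers, and Mylpf alone gave 181 of the skeletal sum. Some genes of the wider lists that are not in the marker sets reached a mean of 10, with 1083 normalised counts for Smtn and 11.0 for Lmod1 among smooth muscle genes. Among genes active in the heart, the mean was 215 for Myl4, 57.5 for Myl7 and 76.8 for Gata4. Some other heart genes of the lists stayed below 10, with 6.25 for Mybpc3, 3.79 for Tbx5, 2.06 for Myl3, 0.543 for Hand2 and 0.465 for Myl2. Muscle-associated genes were thus not uniformly low. All 12 non-muscle cytoskeleton genes reached a mean of 10, with a median of 327 per kb, led by Actb (21673), Vim and Actn4. The lowest were Actg1 (24.4) and Myl6 (5.61), and Myl6 lay below the median gene. Stretches shared with other genes were searched for the members only. Whether a minority of differentiated cells contributed to the members' reads was not tested.

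The members are not a cluster in the genome, although 3 of them lie on chromosome 2 (Ttn at 76703980 to 76982547, Neb at 52136647 to 52378474 and Nebl at 17343909 to 17731464). Des (75360329 to 75368579) and Obsl1 (75479310 to 75506452), the highest members per kb, are both on chromosome 1 with 111 kb between them. Of the 4 genes of the table in that interval, Gmppa had 881 per kb, Chpf 192 and Asic4 0.882, and Speg, which encodes a kinase of striated muscle, had 15.3. Within 100 kb of Ttn, the level was 219 per kb for Plekha3, 22.0 for Prkra, 7.18 for Fkbp7 and 3.01 for Ccdc141. Levels of neighbours thus covered a wide range on either side of the members. Myom1 (chromosome 17, 71019521 to 71126856), Myom2 (chromosome 8, 15057653 to 15133541) and Ldb3 (chromosome 14, 34526699 to 34588681) lie alone.

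TET enzymes oxidise 5-methylcytosine, which in mammals lies mainly at CpG sites, so CpG sites were counted in the promoters of the members. RefSeq windows of GRCm38.p6, from 250 bases before to 50 after a start, were at hand for 6 members, and Neb and Myom2 had none. The median over all 32817 windows was 7 CpG sites. Ttn and Obsl1 had 8 each, Des 11, Ldb3 6 in both its windows and Myom1 2. Nebl has 4 windows, 1 with 32 sites and the others with 1, 1 and 5. In the Des window and the Nebl window with 5 sites, the bases after the start matched no GENCODE transcript of the gene. The 250 bases before the start are shown for the members with the most reads, with CpG sites in capitals, at chr2:76982548-76982797 for Ttn and chr1:75506453-75506702 for Obsl1, both on the minus strand.
Ttn: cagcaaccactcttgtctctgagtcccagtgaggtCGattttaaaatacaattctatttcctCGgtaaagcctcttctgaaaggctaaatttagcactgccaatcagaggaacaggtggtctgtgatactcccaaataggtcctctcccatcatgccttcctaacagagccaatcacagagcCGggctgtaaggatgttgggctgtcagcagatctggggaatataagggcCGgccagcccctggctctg
Obsl1: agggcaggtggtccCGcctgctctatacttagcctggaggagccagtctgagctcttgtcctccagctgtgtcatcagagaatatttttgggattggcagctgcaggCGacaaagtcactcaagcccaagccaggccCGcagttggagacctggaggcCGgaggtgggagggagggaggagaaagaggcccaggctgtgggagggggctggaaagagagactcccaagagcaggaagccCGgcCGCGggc
The same windows held the E-box letters CANNTG 4 times in Obsl1, 3 times in Myom1, 2 times in Des and 1 time in Ttn. Ldb3 had 0 matches in both its windows, and the Nebl windows had 0, 1, 1 and 1. At least 1 match was present in 72.3% of all windows. TATAAA, searched on both strands, was found in 13.6% of all windows and in none of the members' windows. Methylation of these sites was not analysed here.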

How the data were processed

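RNA from WT and D2018A mESCs was depleted of ribosomal RNA, and total RNA libraries were sequenced as single-end reads of 50 bases. Per the labels, the authors aligned reads to GRCm38.p6 and counted genes with STAR 2.5.3a, and normalised the counts with DESeq2 1.20.0. The value used was the authors' deposited mean of normalised counts, a signal averaged over all libraries of their fit. Another 5 columns of the deposited table hold the authors' log2 fold change between D2018A and WT, its standard error, statistic, p-value and adjusted p-value, and were not used. Other columns of values per sample were not present. The planned count test needs counts per library and was not run. A step counted as a library where 30 or more genes shared it and no pair of smaller steps added up to it. On data simulated with 12 libraries this rule recovered 12, which cannot show that the real number is 12. Exon lengths are those of GENCODE M21, which holds 19342 of the 19429 identifiers. Python 3.11.15 and scipy 1.17.1 were used. The unique share of 50-base stretches was planned against a genome and was computed against transcripts. Protein identity was not analysed here. The members and lists were chosen with earlier results of these data known. Named were all members, the 3 highest genes per kb of each list and genes overlapping a member. Titin's partners, neighbouring genes and cell type markers were named beside these. So were Gata4, Actg1, Myl6, Actn3, Mypn, Myot, Myl2, Myl3, Mybpc3, Tbx5 and Hand2, all after their values had been seen. Not every gene of the lists is reported here by name.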

Additional observations from a re-analysis of the deposited data

How the results depend on the processing

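The level of Ttn was 7.72 normalised counts per kb of exon, and 8.44 with the longest transcript, 8.05 with coding length and 8.52 with unique starting positions. These lie outside its counting interval, as did all 24 such values of the 8 members, because the length itself changes. Its percentile of 40.8 was 34.9 among protein-coding genes and 11.9 among those whose mean reached 10. With settings chosen after the data were seen it was 39.7 with the longest transcript and 27.1 with coding length for every gene. Obsl1 and Des stayed above the median gene and the other 6 members below it in all of these. Of the members, 8 had a mean of at least 1 and 3 at least 100, against 5 at 10. Requiring 20 genes for a step gave 13 libraries and requiring 50 gave 5, since most steps hold fewer genes than that. Leaving out a library could not be done. No paired analysis was possible because the table holds no value of a single library. Depth limits the order of Nebl, Myom2 and Myom1, and without a spread between lines no level can be set against biological variation.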
